A study of Mus musculus with 4 samples.

Results

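Cdkn1a and 9 other target genes of the transcription factor p53 (Mdm2, Trp53inp1, Ccng1, Plk2, Gadd45b, Bax, Phlda3, Eda2r and Sesn1) were followed in single-nucleus RNA-sequencing libraries of mouse brain after ischemic injury. These 10 genes, of the 46983 genes counted, were chosen by measured values as well as by name. The level of Cdkn1a in oligodendrocyte-like nuclei at day 1, divided by its level in the sham library, was already known to be the largest such ratio of that class. That ratio and the pattern of Cdkn1a over classes are therefore a description, and nothing is supported with them. The study followed how brain cells, glia above all, respond when the middle cerebral artery is closed for good (MCAO) by coagulating and transecting it, a model of stroke without reperfusion. The 4 libraries were a sham control (ctrl) and day 1, day 3 and day 7 after the injury (1, 3 and 7 DPI). All animals were male C57Black/6 mice aged 3 months, and each library was made from 3 forebrain hemispheres pooled before sequencing on the 10x Genomics platform. With 1 library per group there is no replicate check, so no test was run and each interval given is a 95% interval for counting error alone.

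The labels leave doubts about the groups that touch every value. The text on treatment names intact cortical tissue as the control whereas the design names forebrain hemispheres. The deposited label reads sham control, while the study lists its control time point as no injury. Whether that library came from operated mice is therefore not known. The study's count of nuclei per time point matches the deposited libraries only if both later time points are exchanged. The deposited labels were kept throughout. The libraries held between 23285489 and 42963698 unique molecular identifiers (UMIs, each counting 1 captured RNA molecule), and 2115, 1017, 3073 and 1569 nuclei were kept from ctrl, 1, 3 and 7 DPI. The day 1 library stood apart by its depth, with a median of 11035 UMIs per nucleus against 5472.5 to 7047 in the others. Between 0 and 3 nuclear barcodes were shared by any pair of libraries. Levels were summed per cell class and library and turned into CPM by division by all UMIs of the class in the same library. In sums of this kind fewer nuclei with a transcript and less transcript per nucleus cannot be told apart.

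The factor p53, encoded by Trp53, is held at a low level by the ubiquitin ligase Mdm2 and accumulates when DNA is damaged or a cell is otherwise stressed. It binds DNA as a tetramer at paired copies of a short motif and turns on genes that stop the cell cycle, repair DNA, feed back on p53 itself or lead to cell death. Cdkn1a encodes p21, an inhibitor of cyclin-dependent kinases that arrests dividing cells, and in cells that no longer divide, such as neurons and mature oligodendrocytes, it is also known as a gene of the general stress response.

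The promoters of Cdkn1a and Ccng1 are shown because they hold paired copies of the p53 motif, and those of Mdm2, Sesn1 and Bax because they hold a single copy. RefSeq windows (GRCm38.p6) were found for 9 of the 10 genes, with Trp53inp1 missing, and gave 11 windows since Cdkn1a and Sesn1 have a pair of start sites each. The 250 bases upstream of each start were searched for the p53 motif of 10 bases, a palindrome that covers both strands, and 5 of the 11 windows held it, as did 7.13% of all 32851 windows. A pair of adjacent motifs with at most 1 mismatch over 20 bases was found in the windows of Cdkn1a and Ccng1 and in 0.0761% of all windows. Each sequence below runs 5′ to 3′ on the strand of its gene, with the motif or the pair in capitals.
Cdkn1a, upstream start (chr17:29090859-29090978, plus strand): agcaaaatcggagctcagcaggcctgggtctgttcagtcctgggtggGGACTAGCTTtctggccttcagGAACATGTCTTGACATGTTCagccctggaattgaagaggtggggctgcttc
Cdkn1a, downstream start, no match (chr17:29093649-29093768, plus strand): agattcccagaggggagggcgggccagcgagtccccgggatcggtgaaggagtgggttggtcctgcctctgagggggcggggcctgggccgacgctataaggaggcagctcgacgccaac
Mdm2 (chr10:117710915-117710964, minus strand): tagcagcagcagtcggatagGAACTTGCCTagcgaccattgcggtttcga
Ccng1 (chr11:40755442-40755491, minus strand): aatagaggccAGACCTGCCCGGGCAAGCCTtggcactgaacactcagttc
Sesn1, downstream start (chr10:41887246-41887295, plus strand): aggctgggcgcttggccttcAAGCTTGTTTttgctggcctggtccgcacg
Bax (chr7:45467070-45467119, minus strand): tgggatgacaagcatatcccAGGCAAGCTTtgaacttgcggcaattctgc
In the upstream window of Cdkn1a the matches began 73 and 51 bases before the start, and the second of them was part of the pair. The exact motif within the Ccng1 pair began 185 bases upstream. The single copies began 186 bases upstream for Mdm2, 173 for Sesn1 and 201 for Bax. A match describes these letters alone, and the libraries hold no measure of binding.

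Cdkn1a (ENSMUSG00000023067.13, chr17:29090976-29100727, plus strand) was a gene of few UMIs in every library and was highest at day 1. In all nuclei together it gave 66, 152, 136 and 75 UMIs at ctrl, 1, 3 and 7 DPI, or 4.02, 11.7, 6.42 and 5.59 CPM. Day 1 stood clear of the other 3 libraries, and the interval of day 3 also lay just above that of ctrl. Over the 4 libraries together the order of its levels ran from endothelial-like nuclei (123 CPM, 99.4 to 151) through oligodendrocyte-like nuclei (22.5 CPM, 17.5 to 28.6) to microglia-like, astrocyte-like and oligodendrocyte precursor (OPC)-like nuclei (14.9, 14.6 and 13.2 CPM). The counting intervals of the last 3 overlapped one another and that of oligodendrocyte-like nuclei, whereas endothelial-like nuclei stood apart. The place of oligodendrocyte-like nuclei came from day 1. As a mean of the 4 libraries, each weighted equally, they were at 27.2 CPM, and without day 1 at 10.7 CPM, below astrocyte-like and microglia-like nuclei at 13.5 and 11.2 CPM. By the pooled level neurons held the least, with 3.41, 3.34 and 1.77 CPM in glutamatergic, striatal projection and GABAergic interneuron-like nuclei and overlapping intervals. A cluster that stayed unnamed, led by Hspa1a, mitochondrial transcripts and Ttr, reached 31.8 CPM.

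**Figure D1:**
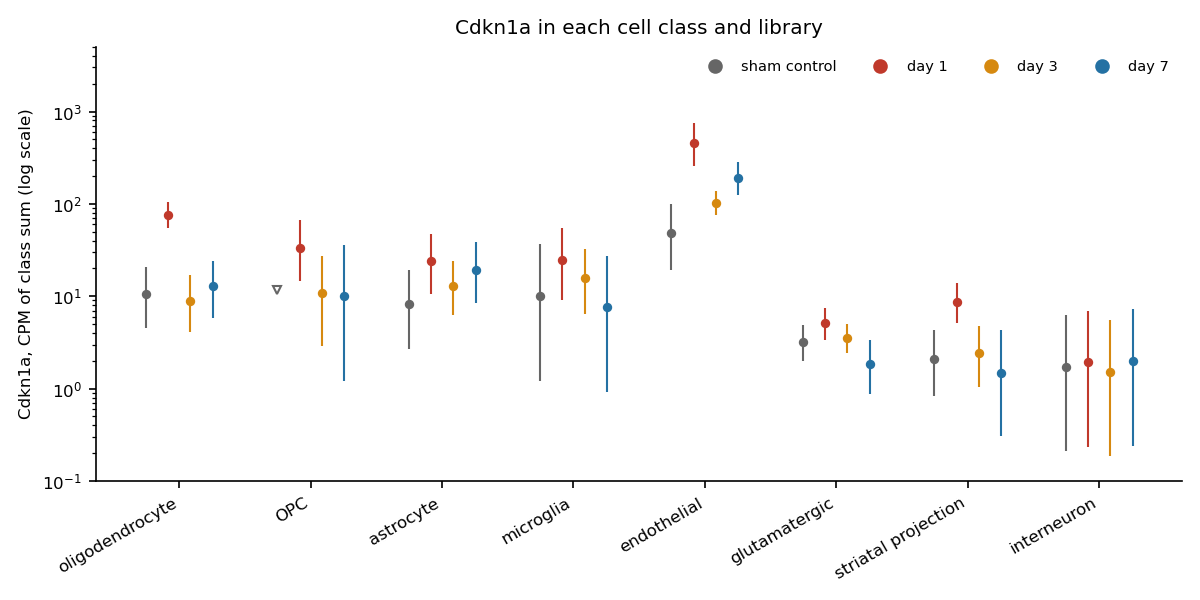
Level of Cdkn1a (CPM of the class sum, log axis) by cell class, with 1 point per library, bars for exact 95% Poisson intervals of counting error, and an open triangle at the level of 3 UMIs where none was counted. The day 1 points reach 461 CPM in endothelial-like and 76.6 CPM in oligodendrocyte-like nuclei, while GABAergic interneuron-like nuclei stay between 1.53 and 2.0 CPM.

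In oligodendrocyte-like nuclei Cdkn1a was counted at 8, 42, 9 and 9 UMIs at ctrl, 1, 3 and 7 DPI, in 320, 159, 432 and 254 nuclei, which gave 10.5, 76.6, 8.95 and 12.8 CPM. The day 1 library was high and the other 3 lay close together. The day 1 level was 7.32 times the sham level (3.39 to 18), and the ratios at day 3 and day 7 were 0.855 (0.293 to 2.55) and 1.22 (0.419 to 3.65), each resting on fewer than 20 UMIs. Oligodendrocyte-like nuclei held 27.6% of the Cdkn1a UMIs of the day 1 nuclei but 4.23% of all UMIs there.

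The day 1 UMIs were spread over many oligodendrocyte-like nuclei. At least 1 UMI was found in 28 of 159 nuclei at day 1, or 17.6% (exact Clopper-Pearson interval 12 to 24.4%), against 2.19%, 2.08% and 3.54% at ctrl, 3 and 7 DPI. Of those nuclei 22 held 1 UMI, 2 held 2, 2 held 3, 1 held 4 and 1 held 6, the most of any. The median depths of these nuclei were 2020, 3081, 1859.5 and 2381 UMIs. With every nucleus thinned to 1000 UMIs the shares were 1.56%, 6.92%, 1.39% and 2.36%, and the libraries kept their order. In the much deeper GABAergic interneuron-like nuclei the day 1 share was 3.12% (median depth 14052 UMIs), and after thinning it was 0%, with an exact upper limit of 5.6%.

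All 4 clusters that made up the oligodendrocyte-like class had their highest Cdkn1a level at day 1. In the largest cluster the level was 14.7, 84.5, 12 and 21.5 CPM at ctrl, 1, 3 and 7 DPI, with 31 of the day 1 UMIs. In the 3 smaller clusters the day 1 level was 50.8, 79.2 and 66.8 CPM from 5, 3 and 3 UMIs, and each other library held at most 1 UMI in each of them.

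Free RNA and RNA of other cells were measured beside this. In droplets of 100 to 1000 UMIs, taken to hold free RNA, Cdkn1a stood at 17.7, 48.5, 19.5 and 16.5 CPM, so it was 2.75 times as high at day 1 as at ctrl there too (2.28 to 3.32). If each nucleus carried the mean free UMIs of such a droplet, free RNA would give oligodendrocyte-like nuclei 2.29 CPM at ctrl and 6.14 CPM at day 1. The part of free RNA in the ratio was not tested. The 14 endothelial markers summed to 99.5, 83.9, 123 and 84 CPM in oligodendrocyte-like nuclei, with 6 of them at 0 at day 1, against 17318 to 26686 CPM in endothelial-like nuclei. Within the day 1 class, nuclei with a Cdkn1a UMI held these endothelial markers at 65.9 CPM (28.5 to 129.9) and nuclei without one at 89.1 CPM (63 to 122). The oligodendrocyte markers of the class were lowest at day 1, the library where Cdkn1a was high. Summed over 14 of them, all detected in each library, they were at 18731, 15336, 16900.3 and 16728 CPM at ctrl, 1, 3 and 7 DPI. Within day 1 they were at 14115 CPM (13454 to 14799.7) in nuclei with a Cdkn1a UMI and 15684 CPM (15310.0 to 16064) in nuclei without one. These intervals did not overlap, but they leave out the spread between nuclei, which come from 1 library and are not replicates. The part of this difference in the Cdkn1a level was not tested. The markers Mog, Prr5l, Aspa, Hapln2, Mobp, Opalin, St18 and Mbp stood among the 10 leading genes of the clusters that made up the class, between 3 and 4 of the marker list in each cluster.

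**Figure D2:**
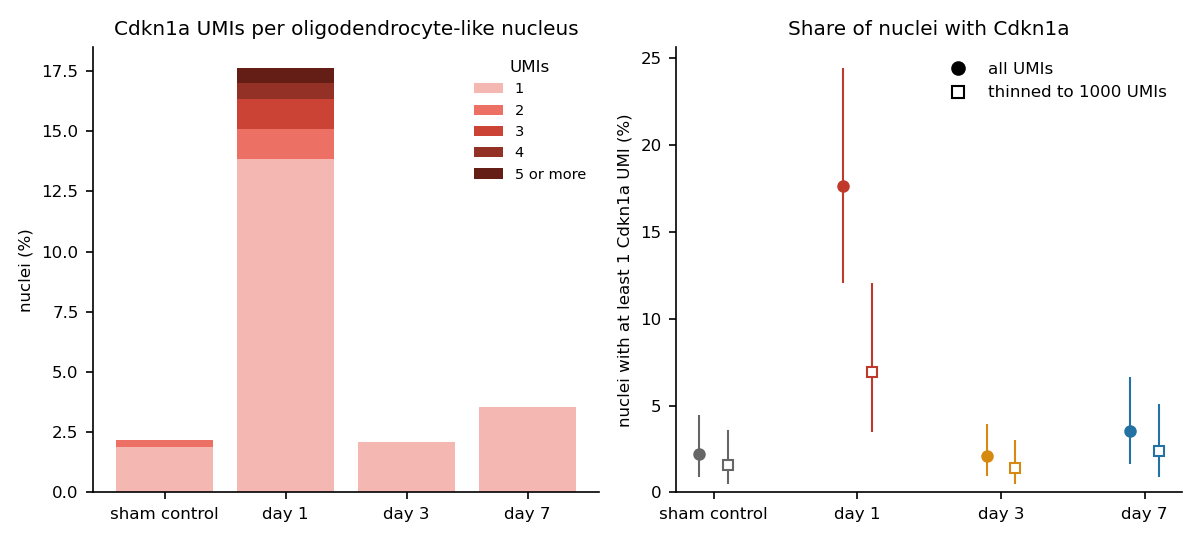
On the left, stacked bars give the share of oligodendrocyte-like nuclei (%) in each library by their number of Cdkn1a UMIs, and on the right points give the share with at least 1 UMI, filled for all UMIs and open after thinning to 1000 UMIs, with exact Clopper-Pearson 95% bars. Day 1 stands at 17.6% and 6.92%, and no other library's point is above 3.54%.

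Endothelial-like nuclei, described after their values were seen, held the highest Cdkn1a levels of any class in each library. They gave 7, 15, 47 and 25 UMIs in 39, 6, 75 and 21 nuclei, or 48.1, 461, 103 and 193 CPM. The 3 post-injury values were above ctrl, and the interval of the day 3 ratio held 1. The ratios were 9.59 (3.68 to 27.8) at day 1, 2.14 (0.962 to 5.62) at day 3 and 4.01 (1.68 to 11) at day 7. With 6 nuclei at day 1 and 33.3% of those UMIs in 1 of them, the day 1 value rests on very few nuclei. At ctrl, 1, 3 and 7 DPI the mural cell markers in this class summed to 7422, 4089, 4234 and 6885 CPM, the astrocyte markers to 3505, 922, 1223 and 2783.5 CPM and the endothelial markers to 20432, 26686, 17318 and 20988 CPM, and their part in the ratios was not tested. The day 3 log2 ratio was -0.21 after thinning each nucleus to 1000 UMIs, and the class is left out of the counts of genes that follow. Endothelial-like nuclei held 34.6% of the Cdkn1a UMIs of the day 3 nuclei.

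In striatal projection neuron-like nuclei Cdkn1a gave 7, 18, 8 and 3 UMIs, or 2.07, 8.71, 2.42 and 1.48 CPM, a day 1 ratio of 4.2 (1.68 to 11.9). Of the 18 day 1 UMIs, 8 came from 1 nucleus. At ctrl, 1, 3 and 7 DPI the striatal projection neuron markers summed to 7635, 5918, 8097 and 7699 CPM in this class. The microglia markers summed to 109, 253, 242 and 198 CPM there. Their part in the ratios of Cdkn1a and of the other members in this class was not tested. Free RNA could account for 5.23 of the 7 ctrl UMIs and 15.2 of the 18 day 1 UMIs at the largest share of it that markers of other classes allowed, and for 1.94 and 2.84 of them at the mean free UMIs of a droplet per nucleus, and its part in the ratio was not tested. In OPC-like nuclei Cdkn1a was at 0, 8, 4 and 2 UMIs, so that the day 1 level of 33.6 CPM was at least 2.84-fold higher than the 3 UMIs that a count of 0 allows at ctrl, while the counting interval of the ratio itself began at 1.82. Of those 8 UMIs, 3 came from 1 nucleus. The endothelial markers summed to 63, 134, 91.3 and 25 CPM in OPC-like nuclei at ctrl, 1, 3 and 7 DPI. Their part in the ratio was not tested. Both classes were thus highest at day 1, from few UMIs.

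In astrocyte-like nuclei the levels were 8.27, 24.2, 12.9 and 19.4 CPM and in microglia-like nuclei 10.1, 25, 15.9 and 7.61 CPM, each from 10 UMIs or fewer, and every interval of their ratios held 1. Glutamatergic neuron-like nuclei, the largest class, gave 21, 27, 32 and 10 UMIs and ratios of 1.59 (0.867 to 2.96), 1.09 (0.61 to 1.99) and 0.568 (0.239 to 1.26). None of these differed from ctrl beyond counting error. GABAergic interneuron-like nuclei held 2 UMIs in each library.

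Mdm2 (ENSMUSG00000020184.14, chr10:117688875-117710758, minus strand), the ubiquitin ligase that degrades p53 and is itself a p53 target, was well counted in oligodendrocyte-like nuclei and its class sums did not differ between libraries beyond counting error. Its values were 86, 66, 107 and 70 UMIs, or 113, 120.4, 106 and 99.7 CPM, and the 4 libraries lay close together. The ratios were 1.07 (0.764 to 1.49), 0.945 (0.705 to 1.27) and 0.885 (0.636 to 1.23), so that a change of the size found for Cdkn1a at day 1 lies outside the counting interval of Mdm2. The clusters of the class did not all follow this sum. At ctrl and day 1 the largest cluster held 85.9 and 136 CPM of Mdm2 (41 and 50 UMIs) and the 3 smaller ones 85.7 and 40.6, 268 and 238, and 218 and 66.8 CPM, each with overlapping intervals. Glutamatergic neuron-like nuclei had a day 1 ratio of 1.22 (1.03 to 1.45), from 269 and 265 UMIs. In the other 5 named classes used for ratios its interval held 1 on each day, and in the neuronal nuclei that the markers did not name the day 1 ratio was 0.741 (0.561 to 0.974).

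Trp53inp1 (ENSMUSG00000028211.11, chr4:11156431-11174379, plus strand) encodes a nuclear protein that favours p53-dependent cell death. In oligodendrocyte-like nuclei it was at 19, 9, 26 and 7 UMIs, or 24.9, 16.4, 25.9 and 9.97 CPM, and was lowest at day 7, at 0.401 times ctrl (0.142 to 0.996). Glutamatergic neuron-like nuclei held 7.2, 9.87, 9.66 and 11.3 CPM and the day 7 ratio was 1.57 (1.06 to 2.35). Those 2 day 7 ratios pointed in opposite directions. In astrocyte-like nuclei, where it was well counted among glia, the ratios were 0.785 (0.363 to 1.59), 0.866 (0.503 to 1.5) and 1.31 (0.732 to 2.33). In oligodendrocyte-like nuclei the OPC markers summed to 372, 162, 549 and 857 CPM at ctrl, 1, 3 and 7 DPI. The newly formed oligodendrocyte markers summed to 1248, 978, 1218 and 2123 CPM there. Their part in the day 7 ratios of Trp53inp1, Ccng1 and Sesn1 in that class was not tested.

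Ccng1 (ENSMUSG00000020326.7, chr11:40748552-40755311, minus strand) encodes cyclin G1, a partner of protein phosphatase 2A and of Mdm2. In oligodendrocyte-like nuclei it gave 20, 9, 10 and 6 UMIs, or 26.2, 16.4, 9.95 and 8.54 CPM, with ctrl the highest library. The ratios were 0.627 (0.251 to 1.44) at day 1, 0.38 (0.159 to 0.85) at day 3 and 0.326 (0.107 to 0.843) at day 7. At day 1 it was higher than ctrl in striatal projection neuron-like nuclei, by 2.07 (0.997 to 4.38) times from 15 and 19 UMIs, and in GABAergic interneuron-like nuclei, by 2.11 (0.838 to 5.73) times, and both intervals held 1. With 78, 72, 104 and 56 UMIs in glutamatergic neuron-like nuclei, every interval held 1.

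Plk2 (ENSMUSG00000021701.7, chr13:110395046-110400844, plus strand), a polo-like kinase that neurons also induce with activity, was well counted in neurons. In striatal projection neuron-like nuclei it was at 102, 86.6, 82.4 and 73.9 CPM and in glutamatergic neuron-like nuclei at 68.8, 70.6, 59.6 and 54.1 CPM. Both were lower at day 7, at 0.728 (0.596 to 0.884) and 0.786 (0.676 to 0.912) times ctrl, and at day 3, at 0.812 (0.69 to 0.954) and 0.866 (0.763 to 0.984) times ctrl. GABAergic interneuron-like nuclei were lower at day 7 as well, with 41 UMIs at ctrl and 17 at day 7, a ratio of 0.481 (0.256 to 0.865). Free RNA droplets also held less Plk2, at 0.879 (0.821 to 0.942) times ctrl at day 3 and 0.684 (0.628 to 0.745) at day 7. The part of free RNA in these ratios was not tested.

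In glia Plk2 was counted at few UMIs. Microglia-like nuclei gave 4, 21, 24 and 8 UMIs, or 20.2, 87.5, 54.3 and 30.5 CPM, and ratios of 4.33 (1.46 to 17.4) at day 1 and 2.69 (0.924 to 10.7) at day 3. In these nuclei the 19 microglia markers summed to 12726, 9280 and 12674 CPM at ctrl, day 1 and day 3, and the 10 markers of border or infiltrating macrophages to 359, 437 and 777 CPM, and their part in the ratios was not tested. Of the 21 day 1 UMIs, 11 came from 1 nucleus, and the day 3 interval held 1. At the mean free UMIs of a droplet per nucleus, free RNA would give 3.77 of the 4 ctrl UMIs, 2.62 of the 21 at day 1 and 8.92 of the 24 at day 3. Oligodendrocyte-like nuclei gave 11, 18, 23 and 7 UMIs, a day 1 ratio of 2.28 (1.02 to 5.34), and the ctrl, day 3 and day 7 levels of 14.4, 22.9 and 9.97 CPM lay at about the free RNA level expected there (18.4, 20.4 and 11.5 CPM). The day 1 level was 32.8 CPM against 17.2 CPM of free RNA, and the part of free RNA in the ratio was not tested. In OPC-like nuclei the day 3 ratio was 2.18 (0.764 to 7.61), from 5 and 16 UMIs, of which free RNA would give 2.59 and 4.6, and the interval held 1.

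Gadd45b (ENSMUSG00000015312.8, chr10:80930073-80932204, plus strand), a stress-induced signalling protein that neurons also induce with activity, was sparse. In glutamatergic neuron-like nuclei it gave 26, 40, 38 and 20 UMIs, highest at day 1, with a ratio of 1.91 (1.13 to 3.25). In striatal projection neuron-like nuclei it gave 32, 23, 25 and 8 UMIs, lowest at day 7, with a ratio of 0.416 (0.166 to 0.922). In oligodendrocyte-like nuclei it gave 6, 4, 16 and 4 UMIs, and the day 3 ratio was 2.03 (0.753 to 6.32), where the interval held 1. In GABAergic interneuron-like nuclei it gave 9 UMIs at ctrl and 1 at day 1, and the interval of that ratio ran from 0.00285 to 0.90. In free RNA droplets it was 1.53 times as high at day 1 as at ctrl (1.25 to 1.87), an interval above 1 that only Cdkn1a and Sesn1 shared among the members there. At day 7 Gadd45b was at 0.717 (0.567 to 0.903) times ctrl in those droplets. The part of free RNA in the ratios of Gadd45b was not tested.

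Among the genes of cell death, Bax (ENSMUSG00000003873.10, chr7:45461697-45466898, minus strand), which permeabilises the outer mitochondrial membrane, gave 34, 34.7, 22.9 and 34.2 CPM in oligodendrocyte-like nuclei and every interval held 1. In glutamatergic neuron-like nuclei it was lower at day 3 and day 7, at 0.756 (0.614 to 0.931) and 0.757 (0.594 to 0.962) times ctrl, from 181, 133, 191 and 115 UMIs. In GABAergic interneuron-like nuclei the day 7 ratio was 0.497 (0.269 to 0.882), from 42 and 18 UMIs. Both of these neuronal classes thus held less Bax at day 7 than at ctrl. Free RNA droplets held Bax at 0.936 (0.849 to 1.03) times ctrl at day 3 and 0.824 (0.733 to 0.926) at day 7. The part of free RNA in the neuronal ratios was not tested. In microglia-like nuclei the day 3 ratio was 2.09 (0.85 to 6.18), from 6 and 28 UMIs, and in astrocyte-like nuclei the day 1 ratio was 0.493 (0.181 to 1.17), from 26 and 7 UMIs. Both of those intervals held 1.

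Phlda3 (ENSMUSG00000041801.5, chr1:135766119-135769136, plus strand), a repressor of the kinase Akt, was best counted in oligodendrocyte-like nuclei. It gave 25, 18, 24 and 18 UMIs there, or 32.7, 32.8, 23.9 and 25.6 CPM, and ratios of 1.0 (0.516 to 1.91), 0.729 (0.399 to 1.33) and 0.783 (0.403 to 1.49). The libraries did not differ beyond counting error. In the other 6 classes used for ratios it gave at most 21 UMIs in a library. Eda2r (ENSMUSG00000034457.10, chrX:97333840-97377216, minus strand), a receptor of the tumour necrosis factor family that binds ectodysplasin A2, gave at most 5 UMIs in any of the 7 named classes used for ratios and any library. Its highest counts were in astrocyte-like nuclei at day 7 and in striatal projection neuron-like nuclei at day 1, each with 5 UMIs against 0 at ctrl, and the counting intervals of these ratios began at 1.34 and 1.5. The former 5 came from 2 nuclei, and 3 of the latter came from 1.

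Sesn1 (ENSMUSG00000038332.12, chr10:41809935-41908424, plus strand), a sestrin that restrains the growth kinase complex mTORC1 under stress, was the best counted member. In glutamatergic neuron-like nuclei it gave 788, 746, 1077 and 603 UMIs, or 121, 142, 118 and 110.1 CPM, and in striatal projection neuron-like nuclei 470, 377, 415 and 283 UMIs, or 139, 182, 125 and 139 CPM. Day 1 was the highest library in both classes, at 1.17 (1.06 to 1.3) and 1.31 (1.14 to 1.5) times ctrl, small differences whose intervals hold counting error alone. In free RNA droplets Sesn1 was at 1.16 (1.04 to 1.29) times ctrl at day 1. Of all genes in these classes 53.1% and 56.1% had a ratio above 1 that day. The part of either in these ratios was not tested. In oligodendrocyte-like nuclei Sesn1 was at 144, 179, 116 and 86.9 CPM, with ratios of 1.24 (0.936 to 1.65), 0.808 (0.618 to 1.06) and 0.603 (0.434 to 0.832). At ctrl and day 1 the largest cluster of that class held 151 and 150 CPM of Sesn1. A smaller cluster held 122 (74.8 to 189) and 315 (214 to 447) CPM, intervals that did not overlap. The others held 122 and 158, and 193 and 134 CPM, with overlapping intervals. In microglia-like nuclei Sesn1 was at 212, 221, 204 and 114 CPM, with a day 7 ratio of 0.539 (0.325 to 0.881). In both glial classes the day 7 library was the lowest. In OPC-like nuclei the day 3 ratio was 0.608 (0.368 to 0.999).

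**Figure D3:**
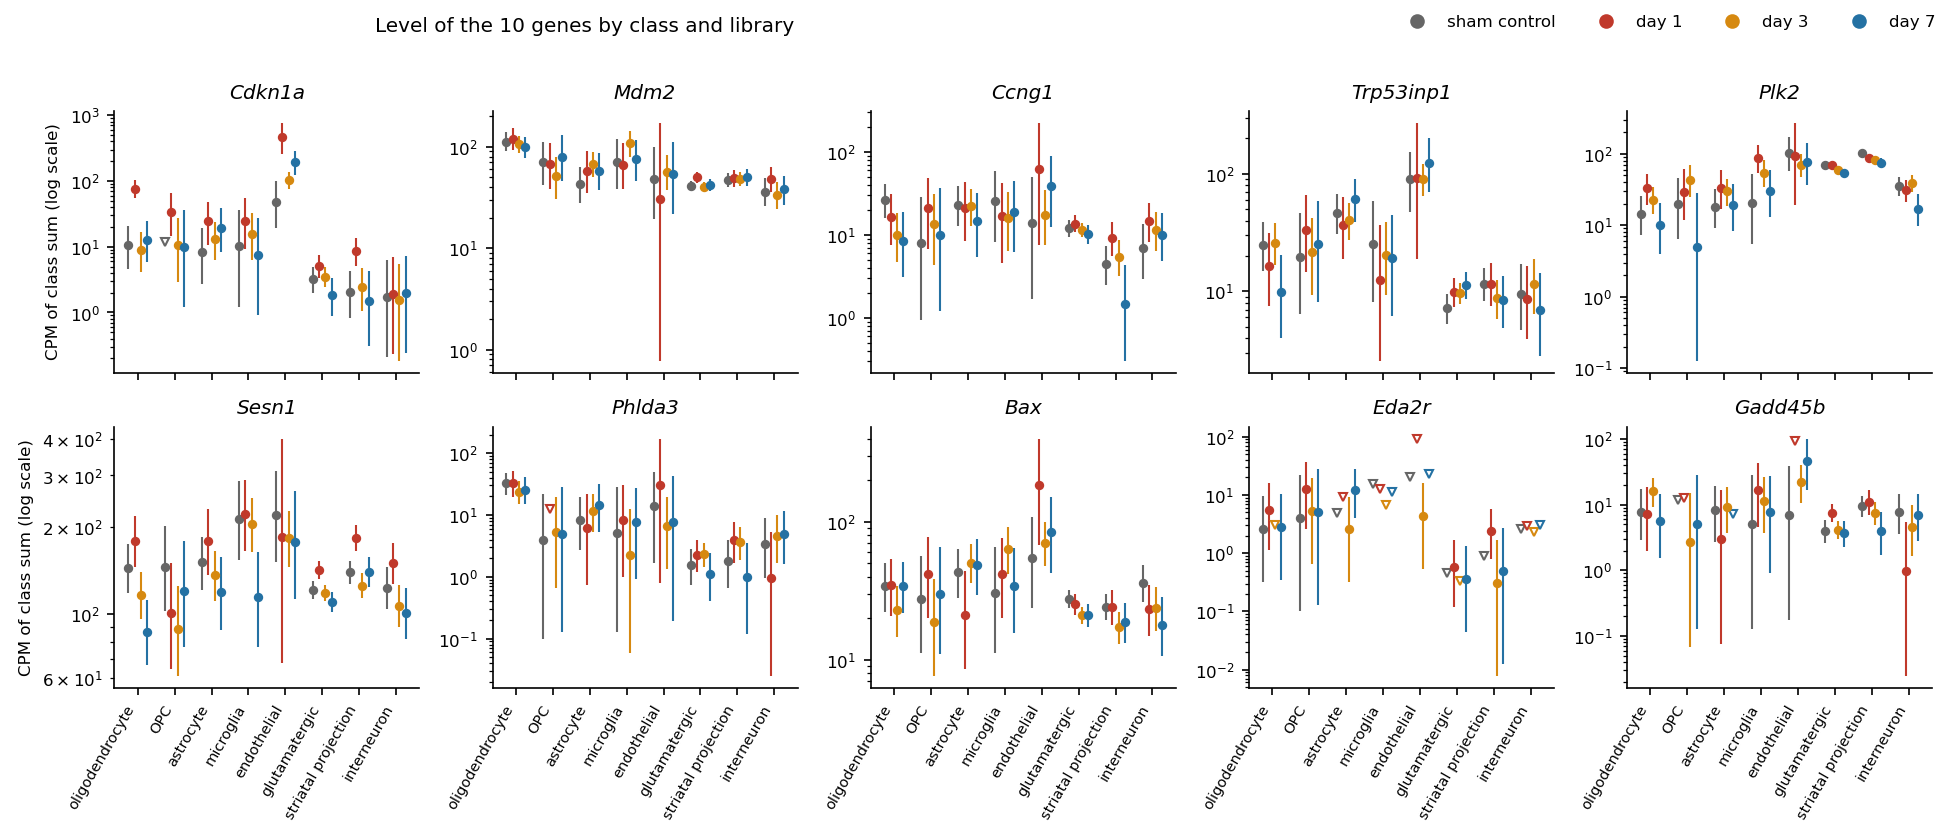
Level of each of the 10 genes (CPM of the class sum, log axes) by cell class, with 1 point per library, exact 95% Poisson bars for counting error, and open triangles at 3 UMIs where none was counted. Cdkn1a runs in oligodendrocyte-like nuclei from 8.95 to 76.6 CPM, while Mdm2 stays there between 99.7 and 120.4 CPM.

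In every other pair of a member and one of the 7 named classes not described singly above, the interval of each ratio held 1.

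Sesn1 and Bax overlap another annotated gene on their own strand (9930024M15Rik and Gm45808) and Cdkn1a overlaps AC167363.2 on the opposite strand. The sources used here do not give the strand setting of the counts, so reads of these pairs may not all belong to the gene named.

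The pairs of a member and a class past 2-fold were counted beside those of all genes. A member was counted as higher or lower where its level was at least 2-fold above or below ctrl with at least 20 UMIs in both sums together, and the same rule was applied to every gene. Of 70 pairs of a member and a class, 42, 43 and 33 had enough UMIs at day 1, day 3 and day 7, and 6, 4 and 0 of them were at least 2-fold higher. That is 14.3%, 9.3% and 0% of the members' pairs, beside 3.67%, 3.11% and 2.59% of the pairs of all genes and the same classes. Of these members' pairs, 4 of 6 and 0 of 4 had an interval that left out 1. Without the nucleus that held most UMIs of the gene in each library, 3 pairs at day 1 and 2 at day 3 were that high. With doublets kept 3 pairs were that high at day 1, and with free RNA subtracted in either way 1 was at day 3. At least 2-fold lower were 1, 1 and 5, of which 0, 1 and 5 had such an interval. The lower pairs were 2.38%, 2.33% and 15.2% of the members' pairs beside 3.37%, 2.42% and 3.84% for all genes. The members were chosen with such values known, so these shares describe them only. Thinning each nucleus to 1000 UMIs left at most 3 UMIs in both sums, and so no ratio, for several of the pairs past 2-fold. Among those it left a ratio, the direction turned for Bax in astrocyte-like nuclei at day 1 (log2 ratio 0.70) and Gadd45b in oligodendrocyte-like nuclei at day 3 (-0.43).

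In oligodendrocyte-like nuclei 8, 8 and 6 members had enough UMIs at day 1, day 3 and day 7. At day 1 Cdkn1a and Plk2 were higher, against 3.21% of all genes, and none was lower, against 4.57%. At day 3 Gadd45b was higher, against 4.19%, and Ccng1 lower, against 1.84%. At day 7 none was higher, against 2.59%, and Ccng1 and Trp53inp1 were lower, against 4.08%. The median log2 ratio of the members was 0.06, -0.19 and -0.54 at day 1, 3 and 7, beside -0.04, -0.01 and -0.09 over all genes of the class. At day 1 the middle of the list thus lay close to that of all genes while Cdkn1a stood far above both. Since the day 1 ratio of Cdkn1a was among the values behind the choice of members, nothing is read from that count.

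**Figure D4:**
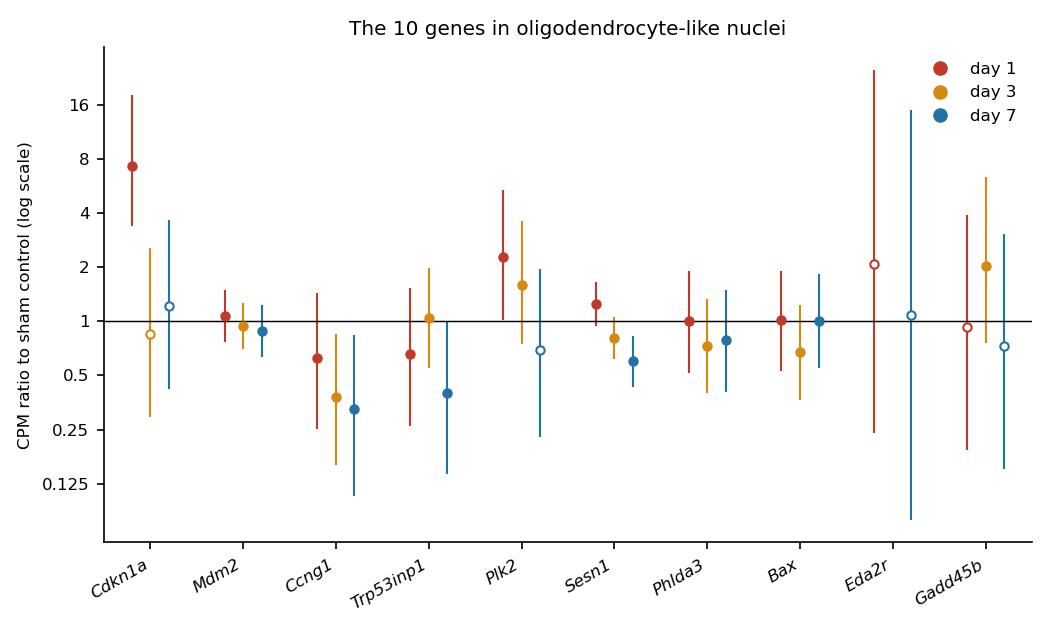
Ratio of each gene's CPM to the sham control (log axis) in oligodendrocyte-like nuclei at day 1, day 3 and day 7, with exact conditional binomial 95% bars, open points where both sums together held fewer than 20 UMIs, and a line at 1; ratios of 0 are not drawn. The day 1 point of Cdkn1a lies at 7.32, with its whole bar above 3, and the bars of Mdm2, Bax and Phlda3 cross 1 on every day.

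In OPC-like nuclei only 2 or 3 members had enough UMIs. None was higher at day 1, against 5.71% of all genes, and none at day 7, against 3.14%, while Plk2 was higher at day 3, against 5.88%. None was lower on any day, against 4.05%, 3.1% and 5.42%. In astrocyte-like nuclei, with 6, 6 and 5 members counted, none was higher, against 2.98%, 2.9% and 2.97%, and Bax alone was lower at day 1, against 7.44%, with none at day 3 or day 7, against 4.2% and 6.71%. In microglia-like nuclei, with 3, 4 and 2 members counted, Plk2 was higher at day 1, against 8.44%, Plk2 and Bax at day 3, against 7.79%, and none at day 7, against 6.18%. None was lower there, against 5.92%, 3.61% and 4.41%. The day 3 median of the 4 members in microglia-like nuclei was 0.84 beside 0.03 over all genes. After thinning it was -0.34 beside -0.041, with 1 of the 4 members at 3 UMIs or fewer in both sums and set to 3.

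In glutamatergic neuron-like nuclei, where 8 or 9 members had enough UMIs, no member passed 2-fold. The shares of all genes that were higher were 2.98%, 1.54% and 2.17% at day 1, 3 and 7, and the shares lower were 1.81%, 1.64% and 2.28%. Of the 9 members counted at day 1, 8 had a ratio above 1, with a median log2 ratio of 0.29 beside 0.02 over all genes, 53.1% of which had a ratio above 1. In striatal projection neuron-like nuclei Cdkn1a and Ccng1 were higher at day 1, against 3.43%, and none at day 3 or day 7, against 1.62% and 1.68%. None was lower at day 1 or day 3, against 1.4% and 1.6%, and Gadd45b was lower at day 7, against 2.75%. In GABAergic interneuron-like nuclei Ccng1 was higher at day 1, against 2.41%, and none later, against 1.8% and 1.86%. None was lower there at day 1 or day 3, against 2.22% and 2.29%, and Plk2 and Bax were lower at day 7, against 3.79%. In each of these 3 neuronal classes the members' day 7 median (-0.18, -0.42 and -0.65) was below that of all genes (-0.06, -0.05 and -0.08). After thinning each nucleus to 1000 UMIs the members' medians were 0.13, 0.42 and 0.24 beside 0.10, 0.20 and 0.43 over all genes. In each class 2 members then held at most 3 UMIs in both sums and were set to 3, so the number of nuclei fixes their ratio, and no direction is read from the thinned medians.

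**Figure D5:**
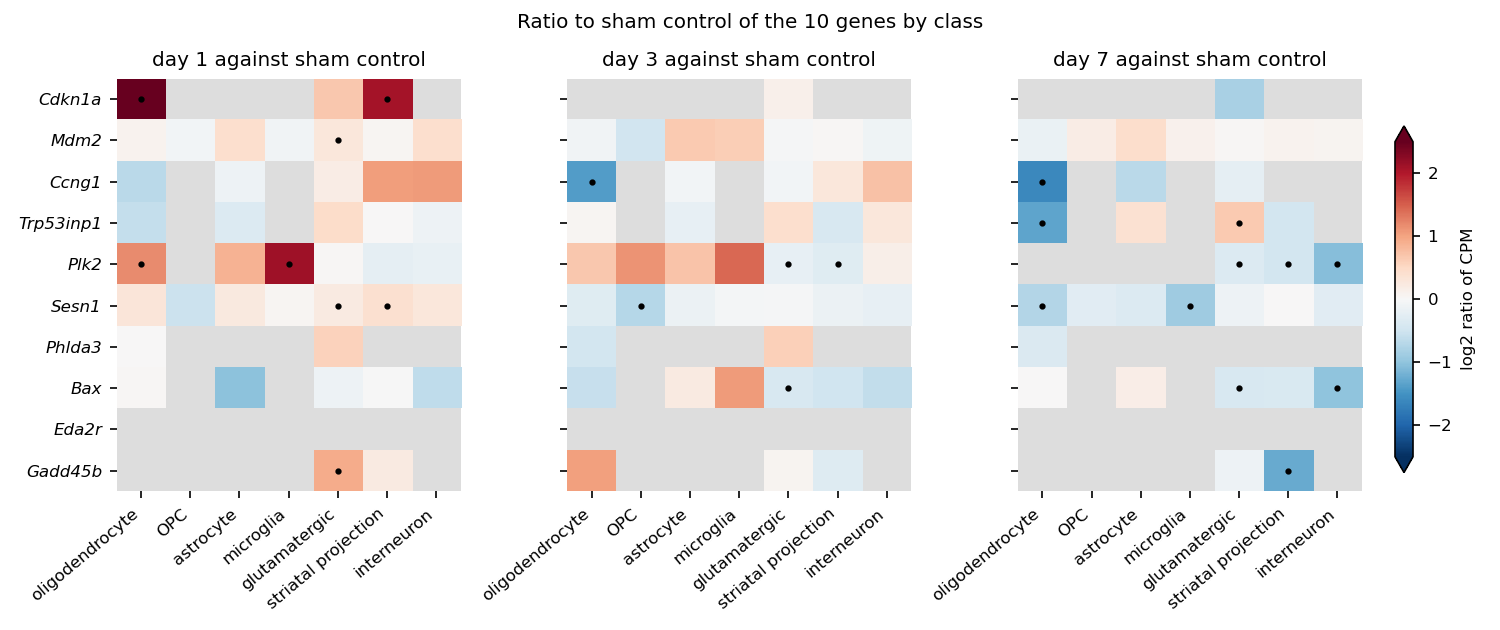
Colour gives the log2 ratio of CPM to the sham control for each of the 10 genes (rows) and 7 cell classes (columns) at day 1, day 3 and day 7, grey marks fewer than 20 UMIs in both sums together, and a dot marks an interval that leaves out 1. The strongest colour is Cdkn1a in oligodendrocyte-like nuclei at day 1, at 2.87, and the day 7 panel holds no gene at 2-fold higher.

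The factor itself and its regulators did not pass 2-fold in oligodendrocyte-like nuclei. Trp53 (ENSMUSG00000059552.13, chr11:69580359-69591873, plus strand) gave 34, 34, 58 and 26 UMIs, or 44.5, 62, 57.7 and 37 CPM, and ratios of 1.39 (0.841 to 2.31), 1.3 (0.835 to 2.04) and 0.832 (0.479 to 1.43). Of the 13 genes listed as p53 and its regulators, 12 were found in the files, and of these 9 had enough UMIs in this class on each day and none was 2-fold higher or lower. At the shares of all genes in this class (3.21%, 4.19% and 2.59% higher and 4.57%, 1.84% and 4.08% lower at day 1, 3 and 7), fewer than 1 call is met in a list of that size, and nothing is read from the absence of calls. Of 35 other p53 target genes, 13, 14 and 12 had enough UMIs at day 1, 3 and 7 and again none passed 2-fold, with median log2 ratios of 0.02, -0.08 and -0.47 beside -0.04, -0.01 and -0.09 over all genes.

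Outside oligodendrocyte-like nuclei a few genes of these lists passed 2-fold. In astrocyte-like nuclei 9 regulators on each day and 11, 13 and 13 other targets had enough UMIs, and at day 1, 3 and 7 these gave 1, 0 and 1 higher and 1, 1 and 2 lower, beside 2.98%, 2.9% and 2.97% of all genes higher and 7.44%, 4.2% and 6.71% lower. In astrocyte-like nuclei Trp53bp1, which binds p53 and marks DNA breaks, was 4.26 (2.91 to 6.33) times ctrl at day 1, but 69 of its 93 UMIs were in 1 nucleus. Zmat3, an RNA-binding p53 target, was at 0.439 (0.147 to 1.1) times ctrl at day 1. Xpc, a DNA damage sensor of nucleotide excision repair, was at 0.352 (0.141 to 0.809) times ctrl at day 3 and 0.366 (0.107 to 1.01) at day 7. Both lay below ctrl, though only the day 3 interval of Xpc left out 1. Fdxr, a mitochondrial reductase, was at 0.40 (0.133 to 1.02) times ctrl at day 7. Ckap2, a spindle protein of dividing cells, gave 1 and 22 UMIs at ctrl and day 7, a ratio of 32.2 (5.21 to 1331), with 16 of the day 7 UMIs in 1 nucleus.

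In microglia-like nuclei Chek2, a checkpoint kinase that activates p53, was at 2.15 (0.805 to 7.22) times ctrl at day 3, and Rchy1, a ubiquitin ligase of p53, at 0.478 (0.221 to 1.04). Sesn3, a sestrin like Sesn1, was at 2.97 (1.06 to 10.2) times ctrl at day 1 and 2.26 (0.781 to 7.95) at day 7, and Ercc5, a nuclease of excision repair, at 2.41 (0.845 to 8.42) at day 7. Of these 4 genes only Sesn3 at day 1 had an interval that left out 1. Of the 35 other p53 targets, at most 8 had enough UMIs in this class on any day, and of all genes there 8.44%, 7.79% and 6.18% were higher and 5.92%, 3.61% and 4.41% lower at day 1, 3 and 7.

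Partners of p21 and of Bax were read in the same way. Among the cyclin-dependent kinase inhibitors, cyclins and kinases, the G1 cyclin gene Ccnd1 was at 4.69 (1.61 to 18.6) times ctrl in astrocyte-like nuclei at day 3. The microglia markers summed to 217 and 448 CPM in these nuclei at ctrl and day 3. Those of border or infiltrating macrophages summed to 9.92 and 28.5 CPM, and the part of either in the ratio was not tested. In oligodendrocyte-like nuclei Ccnd2, another G1 cyclin gene, was at 3.17 (1.27 to 9.44) times ctrl at day 3, with 12 of 25 UMIs in 1 nucleus. At day 7 the kinase gene Cdk4 was at 2.54 (0.916 to 8.06) times ctrl in those nuclei and the inhibitor gene Cdkn2d at 0.272 (0.0662 to 0.843). Of the 15 genes of that list, 3 to 5 had enough UMIs in oligodendrocyte-like or astrocyte-like nuclei. Of all genes 2.9% were higher in astrocyte-like nuclei at day 3, 4.19% in oligodendrocyte-like nuclei at day 3 and 2.59% at day 7, when 4.08% were lower.

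In the BCL2 family the anti-apoptotic gene Bcl2 was at 2.82 (1.19 to 7.7) times ctrl in oligodendrocyte-like nuclei at day 3 and the pro-apoptotic gene Bcl2l11 at 0.326 (0.103 to 0.902), both with intervals that left out 1. In microglia-like nuclei Bcl2l11 was at 0.33 (0.105 to 0.90) times ctrl at day 1. The anti-apoptotic gene Mcl1 was at 2.34 (1.21 to 4.6) times ctrl in astrocyte-like nuclei at day 1, with 13 of 23 UMIs in 1 nucleus. Among paralogs of the members, besides Sesn3, Tnfrsf19 was at 2.31 (0.946 to 6.19) times ctrl in oligodendrocyte-like nuclei at day 7, with 7 of 17 UMIs in 1 nucleus. Of the 14 genes of the BCL2 family, 2 to 5 had enough UMIs in oligodendrocyte-like, 3 or 4 in astrocyte-like and 4 in microglia-like nuclei, and of the 16 paralogs 2 to 7 did. Of all genes 4.19% were higher and 1.84% lower in oligodendrocyte-like nuclei at day 3, 2.59% were higher there at day 7, 5.92% were lower in microglia-like nuclei at day 1 and 2.98% were higher in astrocyte-like nuclei at day 1.

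Within the day 1 library, oligodendrocyte-like nuclei with and without a Cdkn1a UMI were set side by side for the other members. The 28 nuclei with Cdkn1a had a median depth of 3364.5 UMIs and the 131 without it 3027. Mdm2 was at 165 CPM (101 to 255) in the former and 108 CPM (78.9 to 144) in the latter. Sesn1 was at 222 CPM (147 to 324) and 166 CPM (129.96 to 209.9). Trp53 was at 74.2 CPM (33.9 to 141) and 58.6 CPM (37.9 to 86.5). For Trp53 and each other member the counting intervals overlapped, and the nuclei come from 1 library and are not replicates.

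Over 23 points, each a class in a library with at least 500000 UMIs, the genes whose log2(CPM + 5) ran most like that of Cdkn1a were Ddit4, a stress gene that inhibits mTORC1 (Pearson r = 0.90), Armc5 (0.87), Csnk1a1, a casein kinase gene (0.87), Smc4, a condensin subunit gene (0.87), and Pcf11, a gene of RNA 3′ end formation (0.87). The points share libraries and depth, so the coefficients describe these libraries only, and 14476 genes were compared. Among the members, Phlda3 and Mdm2 ran most like Cdkn1a, with r = 0.77 and 0.75, leaving aside Eda2r, which rests on 22 UMIs (0.86). Plk2, well counted in neurons, had r = -0.26. With 1 CPM added in place of 5, Ddit4, Csnk1a1, Smc4 and Pcf11 stayed among the 10 most alike, and with 20 CPM Armc5 and Ddit4 did.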

How the data were processed

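The authors deposited, for each of 4 libraries, raw UMI counts per gene and barcode (46983 genes), which per the labels and the study's methods came from STAR 2.7.3a (STARsolo, exons and introns counted) on GRCm38 (mm10) with a GENCODE annotation. Nuclei were called among barcodes over 1000 UMIs by an emptyDrops-like test (FDR 0.001) against all barcodes of at most 1000 UMIs. Doublets were removed by score. Free RNA levels were taken from droplets of 100 to 1000 UMIs. Libraries were integrated and clustered in Seurat 5.3.0 (sctransform 0.4.2, R 4.3.3, 30 components, resolution 0.8) without the members and list genes. Clusters were named "X-like" from 223 markers of 19 cell types, and 7 named classes with at least 20 nuclei in each library entered the ratios. The UMIs of a class were summed per library and scaled to CPM in Python 3.11.15 (SciPy 1.17.1). Levels carry exact Poisson intervals, ratios exact conditional binomial intervals and shares exact Clopper-Pearson intervals, all for counting error only, since PCR and pooling error cannot be seen with 1 library per group. The ratio step was tested on simulated counts. Every member is described, in named classes singly where the interval left out 1 and otherwise singly or by counts, with the list genes past 2-fold in oligodendrocyte-like, astrocyte-like and microglia-like nuclei (at most 3 per list, class and direction) and the 5 genes most like Cdkn1a. The members and lists were chosen with earlier results of these data known. Gene positions and overlaps are from a later GENCODE release of GRCm38 than the one the study names for its counts. Promoter sequences are from RefSeq GRCm38.p6. Alternatives covered scaling (edgeR 4.0.16, TMM), nuclei, doublets, free RNA, depth, clustering and thresholds. The summed oligodendrocyte markers leave out 1 gene of the list, which is not reported here.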

Additional observations from a re-analysis of the deposited data

Results flagged for a closer look

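For a pair of members the ratio to ctrl lay above 1 in one class and below 1 in another on the same day, each from at least 20 UMIs in both sums together and with an interval that left out 1. Mdm2 at day 1 was at 1.22 times ctrl in glutamatergic neuron-like nuclei and at 0.741 times ctrl in a group of neuronal nuclei that the markers did not name. Trp53inp1 at day 7 was at 1.57 times ctrl in glutamatergic neuron-like nuclei and at 0.401 times ctrl in oligodendrocyte-like nuclei. With 1 library per group neither difference between classes was tested.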

How the results depend on the processing

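The ratios of Cdkn1a that rest on at least 20 UMIs (oligodendrocyte-like and striatal projection neuron-like nuclei at day 1, glutamatergic neuron-like nuclei on each day) stayed inside their counting intervals under every alternative that gave a value, and the log2 ratio in oligodendrocyte-like nuclei at day 1 ran from 2.27 to 3.43 over 11 alternatives. In striatal projection neuron-like nuclei at day 1 it was 1.45 without the top nucleus, and the subtraction of free RNA in proportion to UMIs and thinning each nucleus to 1000 UMIs left too few UMIs for a value. No ratio is given where an alternative left at most 3 UMIs in both sums, as thinning did for many. Thinning turned the log2 ratio of Bax in astrocyte-like nuclei at day 1 to 0.70, of Gadd45b in oligodendrocyte-like nuclei at day 3 to -0.43 and of Cdkn1a in endothelial-like nuclei at day 3 to -0.21, each from few UMIs. The day 1 share of nuclei with Cdkn1a moved under thinning to 6.92% in oligodendrocyte-like and 0% in interneuron-like nuclei.

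The number of pairs of member and class at least 2-fold higher was 6 at day 1, and 3 with doublets kept, 3 without the top nucleus of each gene, 1 with a minimum of 40 UMIs and 0 after thinning. That 0 does not mean that every ratio fell below 2-fold. Cdkn1a in oligodendrocyte-like nuclei at day 1 kept a log2 ratio of at least 2.27 after thinning too. It left the count because its thinned sums did not reach the minimum of 20 UMIs. The number of pairs was 4 at day 3, and 1 with free RNA subtracted in either way, 1 after thinning, 2 as a mean over nuclei, 2 without the top nucleus, 2 without nuclei over 5% mitochondrial UMIs, 0 with a minimum of 40 UMIs and 10 at a fold of 1.5. It was 0 at day 7, and 1 at a fold of 1.5 or a minimum of 10 UMIs.

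The median log2 ratio of the members moved by less than 0.2 in 204 cases and by more in 9, and is left out here where an alternative left a member with at most 3 UMIs in both sums. With nuclei over 2000 UMIs alone it was 0.26 in astrocyte-like nuclei at day 1 and 0.65, 1.12 and -0.16 in microglia-like nuclei at day 1, 3 and 7, where it was -0.34 at day 1 as a mean over nuclei and -0.87 at day 7 after thinning. In OPC-like nuclei at day 7 it was -0.33 as a mean over nuclei and -0.26 with every barcode over 1000 UMIs taken as a nucleus. Without the top nucleus it was -0.075 in striatal projection neuron-like nuclei at day 1. Of the 5 genes most like Cdkn1a, 2 stayed among the 10 most alike with 20 CPM added. The cause of these moves was not tested. TMM scaling moved no result past these limits. No paired analysis was possible because each group has 1 library. Sums of a few UMIs limit most classes outside the large neuronal ones, so a member whose interval holds 1 may still differ.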

Other observations

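Both results here were chosen after their values were seen. A cluster that the markers did not name, led by Hspa1a, mitochondrial transcripts and Ttr, held 3, 17, 7 and 5 Cdkn1a UMIs in 15, 24, 91 and 30 nuclei at ctrl, 1, 3 and 7 DPI, or 32.3, 72.6, 14.4 and 25.9 CPM. The make-up of that cluster differed between libraries, with choroid plexus markers at 387, 282, 3356 and 17450 CPM and microglia markers at 118, 269, 480 and 1207 CPM, so its Cdkn1a levels are not compared between libraries. In the neuronal nuclei that the markers did not name, Gadd45b was at 2.73 times ctrl at day 1 (1.06 to 7.86), from 7 and 16 UMIs.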
